A study of Mus musculus with 4 samples.

Results

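The matrix metalloproteinases (MMPs) described here are 10 genes, Mmp2, Mmp3, Mmp9, Mmp10, Mmp11, Mmp12, Mmp13, Mmp14, Mmp19 and Mmp23, chosen by gene name. They were read by 16 of the 34945 probe sets that carry a single gene name, out of 45101 on the array. A probe set is a group of short oligonucleotides that together read the transcripts of a gene. The 4 arrays held RNA of mouse dermal fibroblasts labelled C57BL/6, 1 array for each of 4 groups. In the in vitro pair, Rbpj was deleted in cells labelled Adeno Cre, after an adenovirus carrying the Cre recombinase, and the control cells were labelled Adeno GFP. Both arms of this pair had thus received a virus. In the in vivo pair, the deleted cells were labelled ColI Cre x RBP loxp-loxp, a cross in which Cre is named after type I collagen and Rbpj is floxed, and the control was labelled RBP loxp-loxp. Floxed alleles are therefore shared by both arms in vivo, and any effect of Cre itself cannot be told apart from that of the deletion. The sources used here do not give the age of the mice, how many were pooled, or the passage of the cells. Rbpj encodes RBP-J kappa (CSL), the DNA-binding partner of Notch receptors.

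MMPs are zinc-dependent endopeptidases that cut collagens, elastin, basement membrane proteins and many cell surface proteins. Most are made as inactive precursors and are switched on when the propeptide is removed, and tissue inhibitors (TIMPs) and the membrane protein Reck hold them in check. In skin, fibroblasts make several members constitutively, whereas others appear in wounds, inflammation and tumour stroma, and the promoters of many inducible members are textbook targets of the AP-1 factors.

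Signals are quantile-normalized log2 values, and a difference is the deleted minus the control array of a pair. With 1 array per group, a difference within a pair has no replicate check and no p-value. A difference of 1 on this scale is 2-fold, which served as the threshold. Levels of different probe sets cannot be compared with each other, so each gene is compared only with itself. A summed signal of a marker list is compared only with the same sum on the other array of its pair. Such a sum weighs the brightest probe sets most. The level cutoff was log2 5.28, the 40th percentile of the gene means. It is a filter and not a detection limit, and lies above the array medians of all probe sets (4.94 to 5.06 as deposited). The brightest probe set stands for a gene unless another is named, and 8 of the 10 MMP genes were above the cutoff on average and entered the counts. Mmp10 and Mmp13 were not. In bulk RNA, more cells of a type and more RNA per cell cannot be told apart.

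Before the values, the upstream sequence of 4 members is shown, because 3 of them lie in one gene cluster and share a motif, though Mmp3 was read above the cutoff and Mmp10 and Mmp13 under it, while the fourth, Mmp23, was lower in both pairs. The sequences are the 250 bases before the annotated transcript start in RefSeq (GRCm38.p6), 5′ to 3′ on the gene's strand. Capitals mark matches to TGANTCA, the AP-1 consensus, searched on both strands. The windows are chr9:7445572-7445821 (plus strand) for Mmp3, chr9:7502092-7502341 (plus strand) for Mmp10, chr9:7272264-7272513 (plus strand) for Mmp13, and chr4:155653291-155653540 (minus strand) for the more downstream of 2 annotated starts of Mmp23.
Mmp3: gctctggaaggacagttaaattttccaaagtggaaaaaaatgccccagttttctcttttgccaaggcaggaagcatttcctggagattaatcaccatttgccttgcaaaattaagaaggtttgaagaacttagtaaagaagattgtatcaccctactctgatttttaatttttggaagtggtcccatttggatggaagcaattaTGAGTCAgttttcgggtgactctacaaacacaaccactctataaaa
Mmp10: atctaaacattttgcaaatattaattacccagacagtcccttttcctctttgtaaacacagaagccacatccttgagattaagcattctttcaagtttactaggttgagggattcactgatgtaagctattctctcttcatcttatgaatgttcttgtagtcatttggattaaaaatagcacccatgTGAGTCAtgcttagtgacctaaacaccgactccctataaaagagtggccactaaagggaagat
Mmp13: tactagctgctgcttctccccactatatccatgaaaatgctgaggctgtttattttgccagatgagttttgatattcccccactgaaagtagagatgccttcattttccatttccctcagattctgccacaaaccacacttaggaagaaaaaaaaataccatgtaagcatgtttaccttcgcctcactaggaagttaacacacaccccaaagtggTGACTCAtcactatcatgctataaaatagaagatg
Mmp23: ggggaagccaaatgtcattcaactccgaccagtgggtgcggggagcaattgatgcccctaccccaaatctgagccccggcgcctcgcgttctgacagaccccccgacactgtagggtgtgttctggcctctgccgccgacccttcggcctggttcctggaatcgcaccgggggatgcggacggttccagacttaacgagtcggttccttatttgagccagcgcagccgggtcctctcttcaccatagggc

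Counting back from the start, with -1 as the last base before it, the AP-1 match lay at -46 to -40 in Mmp3, at -63 to -57 in Mmp10 and at -35 to -29 in Mmp13. Mmp12 had a match at -44 to -38 of one of its 2 annotated starts. In all, 4 of the 7 members with a promoter entry had the motif, in 4 of their 9 windows, and the windows of Mmp11, Mmp14 and Mmp23 did not. These 4 members lie in one gene cluster. Of 32851 windows of the same length, 6.75% held it. The core letters of the CSL site, TGGGAA on either strand, were in 0 of the 9 windows of the members and in 21.6% of all windows. A match is a description of letters and is not a binding site, and the absence of a match covers these 250 bases only. Mmp2, Mmp9 and Mmp19 are named only, without a sequence.

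Mmp3, Mmp10, Mmp12 and Mmp13 belong to a run of 10 MMP genes that follow each other on chromosome 9 with no other protein-coding gene between them in RefSeq. In the order Mmp13, Mmp12, Mmp1b, Mmp3, Mmp1a, Mmp10, Mmp8, Mmp27, Mmp20 and Mmp7, only Mmp3 of the 9 with a probe set differed by 2-fold in either pair. Its direct neighbours Mmp1b and Mmp1a differed by -0.10 and 0.0018 in vivo, with signals from 3.33 to 3.80 on all 4 arrays, under the cutoff. Mmp27 had no single-gene probe set and is not analysed here. Of these 9 genes, only Mmp3, Mmp12 and Mmp7 passed the cutoff on average, so small differences among the other 6 were not read for direction.

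**Figure D1:**
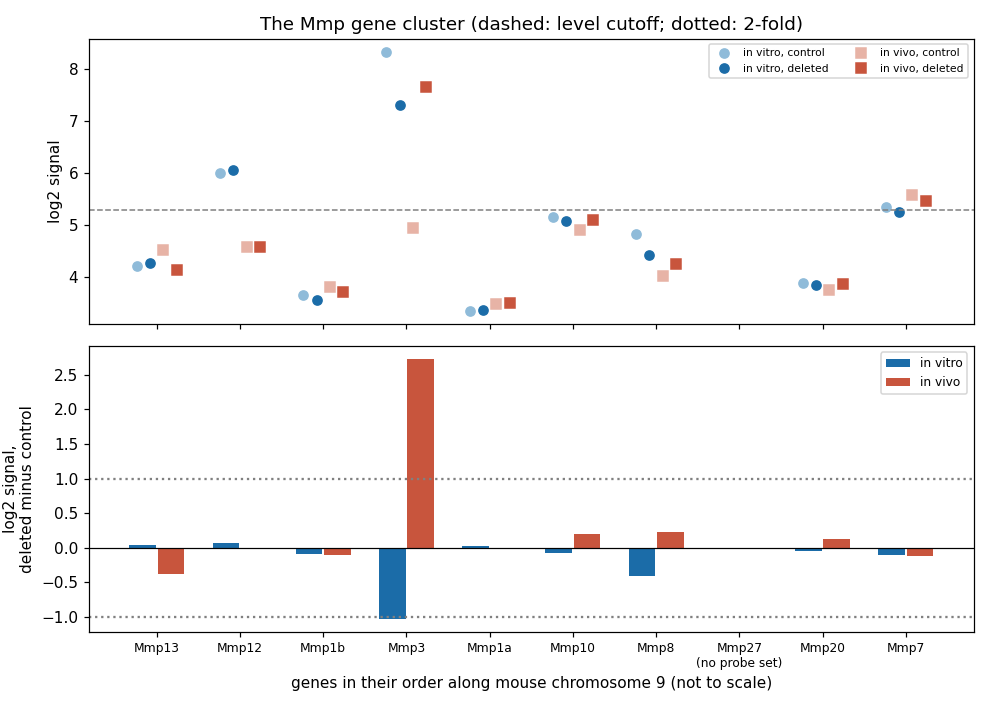
Genes of the chromosome 9 cluster in their genomic order (not to scale). The upper panel gives the log2 signal on each of the 4 arrays with the cutoff (5.28) dashed, and the lower panel the difference, deleted minus control, with 2-fold dotted. Mmp3 stands at -1.02 in vitro and 2.73 in vivo, and the 8 other genes with a probe set stay inside the dotted lines.

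Each pair compares transcript levels between an array labelled as deleted and its control, in vitro or in vivo. Whether the cells labelled in vivo were cultured before RNA was taken is not given in the sources used here. In vitro, 1 of the 8 MMP genes was at least 2-fold higher in the deleted culture (Mmp19) and 2 were at least 2-fold lower (Mmp23 and Mmp3). Over all 10916 genes analysed, 0.788% were that much higher and 1.15% that much lower. In vivo, 2 MMP genes were at least 2-fold higher (Mmp3 and Mmp9) and 1 was lower (Mmp23), against 2.81% and 3.81% of all genes. The median difference of the 8 genes was -0.23 in both pairs, and that of all genes was -0.06 in vitro and -0.03 in vivo. Of the 8 genes, 4 passed 2-fold in at least 1 pair and the other 4, Mmp2, Mmp11, Mmp12 and Mmp14, in neither.

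**Figure D2:**
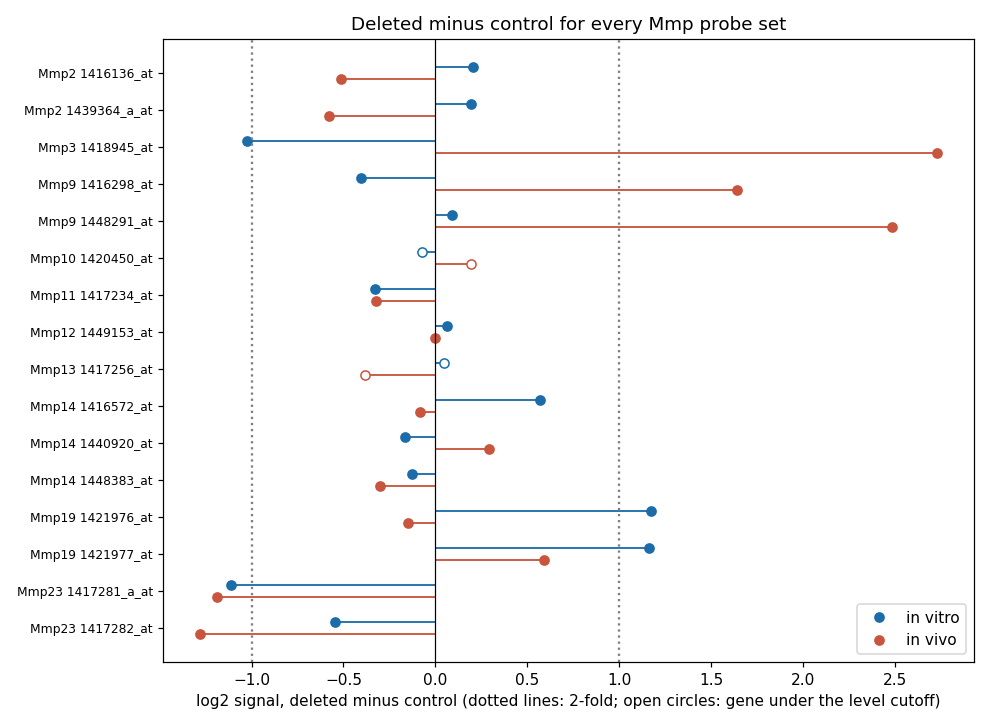
Difference in log2 signal, deleted minus control, for each of the 16 probe sets, in vitro in blue and in vivo in red; open circles mark genes under the cutoff and dotted lines 2-fold. Both Mmp23 probe sets lie to the left of 0 in both pairs, both Mmp19 probe sets lie at or above 1.16 in vitro, and Mmp3 and both Mmp9 probe sets lie at or above 1.64 in vivo.

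Mmp3, or stromelysin, cleaves proteoglycans, laminin and fibronectin and activates other MMP precursors. Its single probe set read 8.34 in the in vitro control and 7.32 in the deleted culture. In vivo it read 4.94 in the control and 7.66 in the deleted array. The in vivo control was the one array on which Mmp3 lay under the cutoff. The difference was -1.02 in vitro (2.03-fold lower) and 2.73 in vivo (6.61-fold higher). Measured from the cutoff in place of the control signal, the in vivo excess was 2.38 on the log2 scale, or 5.21-fold. Among all genes analysed, the in vitro difference stood at percentile 0.99 and the in vivo difference at percentile 99.8. The in vitro value sat at the edge of the threshold and was -0.92 with loess normalization within the pair and -0.995 in the deposited values.

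Mmp9 encodes the larger gelatinase, which degrades denatured collagen and type IV collagen and is made in inflamed and wounded skin by several cell types. Its brightest probe set read 5.65 in the in vitro control and 5.24 in the deleted culture, and 5.40 in the in vivo control and 7.04 in the deleted array. The second probe set read 5.18 and 5.27 in vitro, and 4.90 and 7.38 in vivo, in the same order. The other 3 arrays read from 4.90 to 5.65 over both probe sets, around the cutoff, and the deleted in vivo array alone stood clear of it. The in vivo differences were 1.64 (3.11-fold higher) and 2.48 (5.58-fold higher), or 2.10 for the second probe set when measured from the cutoff. In vitro the probe sets gave -0.41 and 0.09, so no direction is read there.

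Mmp2, the smaller gelatinase, is made constitutively by dermal fibroblasts. It read 11.48 in the in vitro control, 11.68 in the deleted culture, 11.62 in the in vivo control and 11.11 in the deleted array. The differences were 0.20 in vitro and -0.52 in vivo, and the second probe set gave 0.19 and -0.58. The in vivo deficit of 1.43-fold lay at percentile 13.6 of all genes. Both gelatinases thus had their in vivo values on opposite sides of 0, with Mmp2 under 2-fold.

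Mmp23 encodes an unusual member that is anchored by its amino-terminal end, lacks the hemopexin domain and is released from the membrane by proprotein cleavage. Its brightest probe set read 10.36 in the in vitro control and 9.24 in the deleted culture, and 9.87 in the in vivo control and 8.68 in the deleted array. The second probe set read 9.35 and 8.80 in vitro, and 9.22 and 7.95 in vivo. Each deleted array was below its own control on both probe sets. The differences were -1.11 and -0.54 in vitro (mean -0.83 ± 0.40, SD over 2 probe sets, a technical spread) and -1.19 and -1.28 in vivo (mean -1.23 ± 0.063). Mmp23 was 1 of 7 genes, 0.0641% of those analysed, that were at least 2-fold lower in both pairs. With the median of its probe sets the in vitro value was -0.83, under 2-fold, and with the trend of the difference on gene length removed it was -0.87.

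Mmp19 cleaves basement membrane proteins and is expressed in normal skin. Its brightest probe set read 6.01 in the in vitro control and 7.18 in the deleted culture, and 6.67 in the in vivo control and 6.52 in the deleted array. The second probe set read 5.84 and 7.002 in vitro, and 6.25 and 6.84 in vivo. In vitro both probe sets were higher in the deleted culture, by 1.17 (2.25-fold) and 1.16 (2.24-fold). The in vitro difference stood at percentile 99.6 of all genes. In vivo the probe sets gave -0.15 and 0.59, opposite in sign, so no direction is read there.

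Mmp14, the founding membrane-type MMP, cleaves fibrillar collagen at the cell surface and activates the Mmp2 precursor together with Timp2. It read 11.72 and 11.59 in vitro (control, deleted) and 11.69 and 11.38 in vivo. The differences of its 3 probe sets lay between -0.16 and 0.57 in culture, and between -0.30 and 0.29 in vivo, on both sides of 0. Mmp11, a stromelysin that furin activates inside the cell and that marks tumour stroma, read 8.34 and 8.01 in vitro and 9.44 and 9.12 in vivo. Its differences were -0.33 and -0.32, at percentiles 24.4 and 23.3 of all genes, well inside the general spread. Neither gene reached 2-fold in either pair.

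Mmp12, the macrophage elastase, read 6.00 and 6.07 in vitro (control, deleted) and 4.58 on both in vivo arrays. Its differences were 0.07 in vitro and -0.0016 in vivo, and it passed the cutoff through the in vitro arrays alone. Mmp13, the main interstitial collagenase of the mouse, read 4.21 and 4.26 in vitro and 4.51 and 4.13 in vivo. Mmp10, a second stromelysin, read 5.15 and 5.08 in vitro and 4.90 and 5.10 in vivo. Mmp10 and Mmp13 were under the cutoff on all 4 arrays, so differences of their transcripts were not interpreted here. For the other 8 genes, the mean over any 3 arrays also passed the cutoff, except for Mmp12 without either in vitro array.

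**Figure D3:**
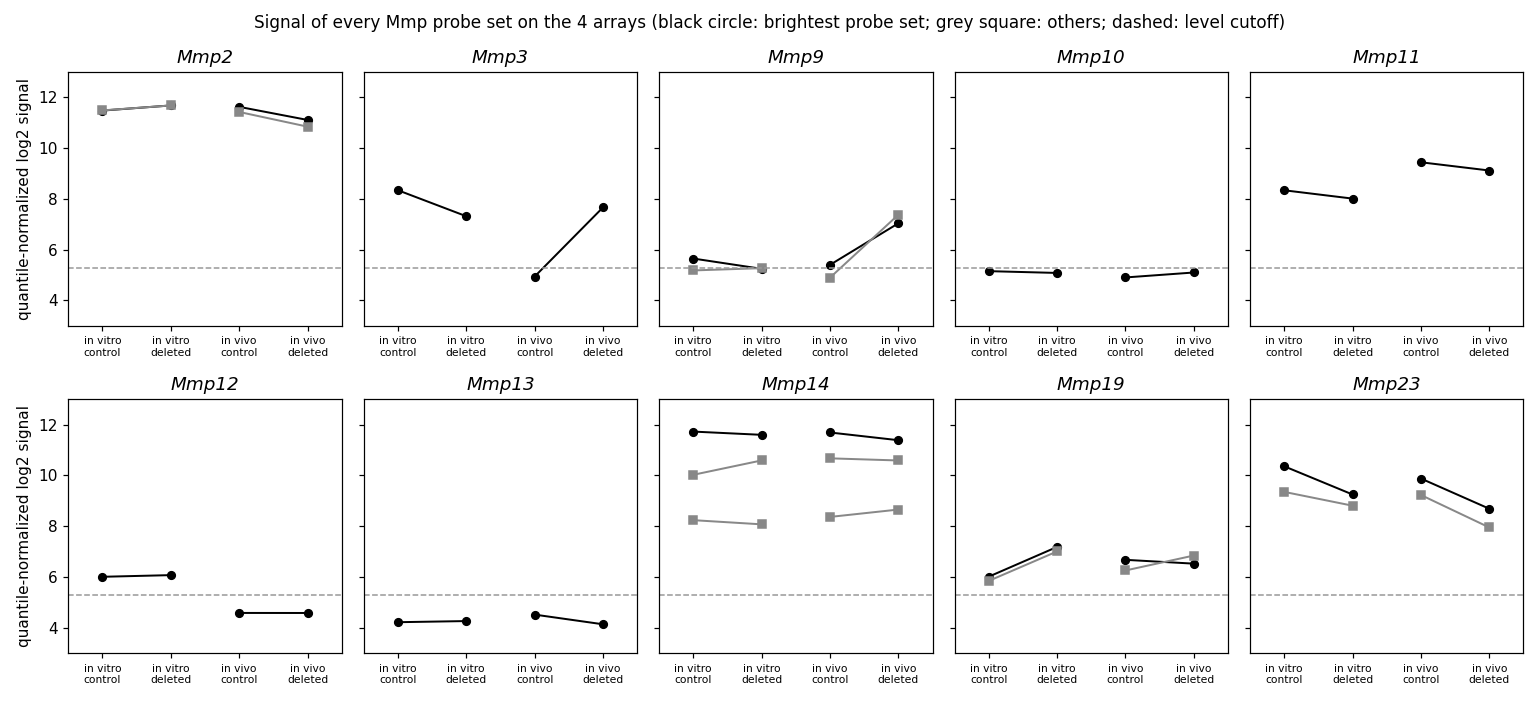
Log2 signal of every probe set on the 4 arrays, 1 panel for each gene; black circles are the brightest probe set, grey squares the others, lines join the arrays of a pair, and the cutoff (5.28) is dashed. Mmp2, Mmp11, Mmp14, Mmp19 and Mmp23 lie above the cutoff on all 4 arrays, Mmp3, Mmp9 and Mmp12 on some, and Mmp10 and Mmp13 on none.

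A deletion effect common to both pairs was fitted with limma across the 10916 genes, with the pair as a covariate. No MMP gene passed an adjusted p of 0.05, and 0 genes (0%) passed in the whole table, while 759 genes (6.95%) had an unadjusted p under 0.05. Mmp23 was the single MMP gene among these, with a shared difference of -1.15 ± 0.20 (SE), lower in both deleted arrays. Its adjusted p from limma was 0.679. The fit leaves 1 residual degree of freedom for each gene and moderates the SE over all genes. The SE is therefore not the spread of that gene alone. Over 6 other settings of the fit the lowest adjusted p of any MMP gene lay between 0.623 and 0.9998. For Mmp3, whose differences oppose each other, the shared difference in limma was 0.85 ± 0.89 (SE), with an adjusted p of 0.817. For Mmp9 the shared difference in limma was 0.62 ± 0.51 (SE), with an adjusted p of 0.772. The difference between the pairs was not tested, because 4 arrays leave no degree of freedom for it.

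Genes with the most similar profile over the 4 arrays were found by Euclidean distance after each gene was centred on its mean, as a description over 4 arrays. For Mmp23 these were Smarca1, a chromatin remodeller (differences -0.99 and -1.21, distance 0.14), Aamdc (-1.33 and -1.26) and Csad, an enzyme of taurine synthesis (-0.94 and -0.999). For Mmp19 they were Rnf111, a ubiquitin ligase (1.16 and -0.04), Fam120a (1.10 and -0.10) and Cask (1.25 and -0.30). For Mmp9 they were Cdca5, Hmgb3 and Ttk, with in vivo differences from 1.36 to 1.59. Cdca5 and Ttk act in chromosome segregation. For Mmp3 they were Crim1, Zeb2, a repressor of epithelial genes, and Hivep3, at distances from 0.83 to 1.01, with in vivo differences of 2.36, 2.04 and 1.49.

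Of 7 listed inhibitors of MMPs 4 passed the cutoff. In the deleted in vivo array 3 of these were lower, as were 53.6% of all genes, and 2 were at least 2-fold lower, against 3.81% of all genes (list median -1.02). In vitro 0 were 2-fold lower, against 1.15% (list median 0.04). Reck, a membrane-anchored inhibitor of several MMPs, read 9.65 and 9.97 in vitro (control, deleted), and 8.31 and 5.96 in vivo, a difference of -2.35 on its single probe set. Timp2 was at -1.08 in vivo on its brightest probe set, with 6 probe sets from -1.08 to -0.17. Timp3 was at -0.95, with 4 probe sets from -1.09 to -0.95. Timp1, by contrast, was at 0.80 in vivo and -0.26 in vitro. In vitro the probe sets of Timp2 ran from -0.16 to 2.35 and those of Timp3 from 0.24 to 2.35, so their in vitro sizes depend on the probe set.

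Activators and docking partners of MMPs had 9 of 11 genes above the cutoff. Of these 1 was at least 2-fold higher in vivo, Plaur, the urokinase receptor that focuses plasmin formation at the cell surface (1.24), and 0 were in vitro, against 2.81% and 0.788% of all genes. The medians of this list were 0.30 in vitro and 0.31 in vivo. Furin, the convertase that activates Mmp11, Mmp14 and Mmp23, was at -0.49 in vitro and 0.57 in vivo and was named after its values were seen. The hyaluronan receptor Cd44, a docking site of Mmp9, was at 0.54 and 0.72, with in vitro probe sets from -0.08 to 2.74. Itgb3, a subunit of the integrin that binds Mmp2, was at -0.83 in vitro with its other probe set at 0.29, so no direction is read, and at -0.09 in vivo.

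Among 11 measured transcription factors known at MMP promoters, 2 were at least 2-fold higher in vivo and 0 in vitro, against 2.81% and 0.788% of all genes. Fosl1, an AP-1 subunit, was at 1.60 in vivo (probe sets 1.39 and 1.60) and 0.37 in vitro. Etv4, an ETS factor, was at 1.58 in vivo with a second probe set at 0.29, and at -0.01 in vitro. Jun was at 0.79 in vivo and 0.49 in vitro (other probe set 0.54 and -0.03), and Fos at -0.53 and 0.42. Of the other MMP genes, 8 of 13 had a probe set and 4 passed the cutoff, Mmp7, Mmp16, Mmp17 and Mmp24. Their differences lay between -0.10 and 0.16 in culture, and between -0.15 and 0.09 in vivo, and 0 of them reached 2-fold.

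**Figure D4:**
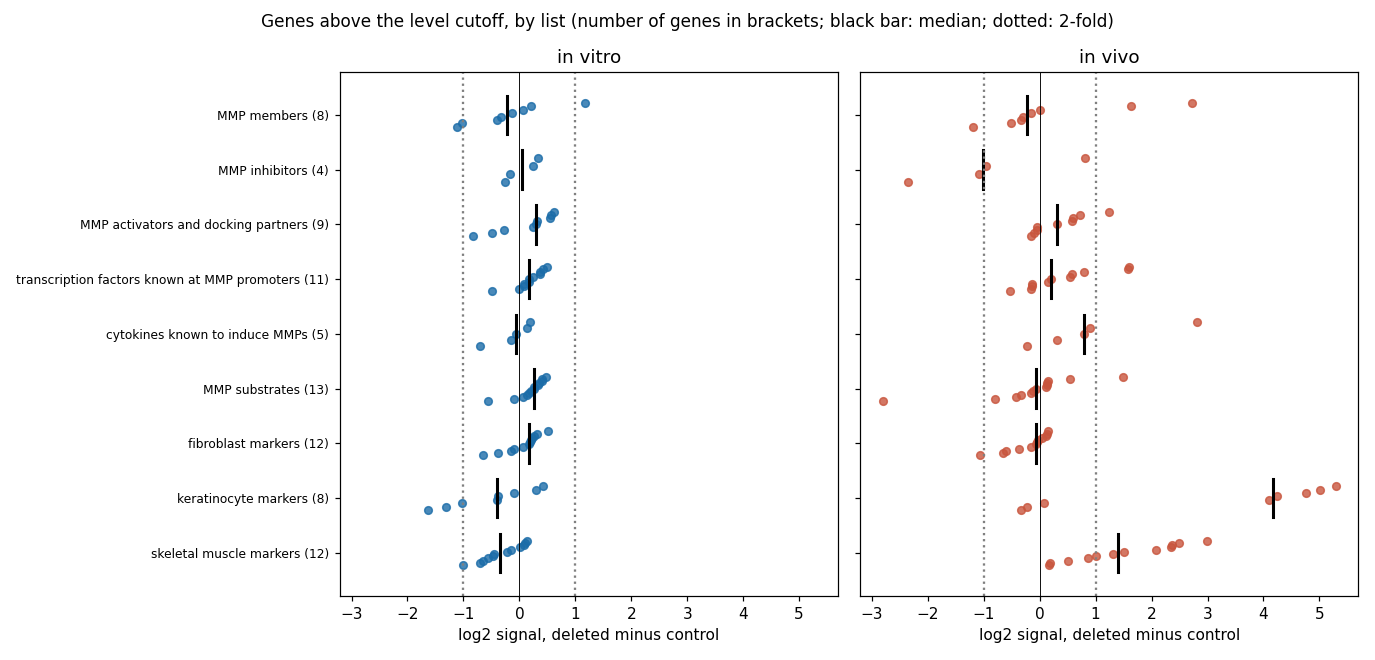
Differences in log2 signal, deleted minus control, in vitro (left) and in vivo (right), for genes above the cutoff in each list; each point is a gene, the black bar is the median, and dotted lines mark 2-fold. In vivo the 4 inhibitors have a median of -1.02 and the keratinocyte and skeletal muscle markers medians of 4.16 and 1.41, while the fibroblast markers have a median of -0.06. Some keratinocyte and muscle markers, Dsp, Myh3 and Tnnc2 among them, passed the cutoff only through the deleted in vivo array. The in vivo medians of these lists thus depend in part on the filter.

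Of the 8 measured keratinocyte markers, 6 were higher with the deletion in vivo and 2 in vitro, against 46.4% and 42.5% of all genes. Krt5, Krt14, Krt17 and Dsp were lower in vitro and higher in vivo, the directions of Mmp3, and the other measured markers were not. Krt10 (-0.33) and Lor (-0.22, another probe set at 0.18) were lower in vivo. Krt6a (0.29) and Epcam (0.42) were higher in vitro, with probe sets down to -0.91 and -0.70. Krt10, Lor and Epcam were named after their values were seen. All 12 fibroblast markers were above the cutoff on every array. In vivo 4 of the 12 were higher, and 1 was at least 2-fold lower, Lum (-1.06, a single probe set), against 3.81% of all genes. Fbln1 was at -0.65 and Pdgfra at -0.59 in vivo. In vitro 8 of the 12 were higher and 0 passed 2-fold. In the deleted in vivo array 5 of 8 measured keratinocyte markers were at least 2-fold higher, against 2.81% of all genes. Dsp, 1 of these 5, read 7.98 there and 3.23 in its control, and passed the cutoff on average only through that array. The count thus depends in part on the array it describes. The summed linear signal of the 15 with a probe set, which uses no cutoff, was 7069 on the deleted in vivo array against 820 in its control. In vitro Krt14 (-1.62), Krt17 (-1.30) and Krt5 (-1.03), 3 of the 8, passed 2-fold downwards, against 1.15% of all genes. The probe set nearest 0 in vitro was at -0.02 for Krt14 and -0.18 for Krt17, and Krt5 has 1 probe set. In vivo the lowest probe set was at 0.50 for Krt14, 0.12 for Krt17, 0.39 for Dsp and 4.11 for Krt6a. The same sum in vitro was 983 with the deletion and 1387 in the control. For 16 skeletal muscle markers the sums were 3843 and 1006 in vivo, and 681 and 772 in vitro (deleted, control). Macrophage markers had sums of 498 and 591 in vivo (deleted, control), and of 392 and 368 without Lyz2, which was at -1.06. Of the 8 neutrophil markers with a probe set, 1 passed the cutoff on average. On the deleted in vivo array 4 of the 8 were above it, against 1 on each of the other arrays. S100a8 and S100a9, which activated keratinocytes also express, were above it in the deleted in vivo array alone, by 0.50 and 0.57. Ngp was also above it there alone, at 5.32, with an in vivo difference of 0.62. Camp, above it on every array, was at -0.08 in vivo. Csf3r (0.61 in vivo), Cxcr2 (0.01), Elane (-0.43) and Mpo (-0.06) were under it on all arrays. All of these neutrophil genes but Camp were named after their values were seen. The part of these cells in the MMP values of either pair was not tested, and leaving out the deleted in vivo array leaves no comparison.

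Control transcripts with probe sets at both ends also differed between the in vitro arrays. The Gapdh probe set at the 3′ end exceeded that at the 5′ end by 1.003 in the in vitro control and 0.02 in the deleted culture, and by 0.14 and 0.13 in vivo. For Actb the in vitro excess was 1.11 and 0.40 and for Pcx 3.16 and 2.01 (control, deleted), whereas for Tfrc it was 0.96 and 1.45, the other way. The part of RNA quality in the in vitro values of Mmp3, Mmp19 and Mmp23 was not tested. Rbpj itself differed by -1.34, -1.11 and 0.10 on its 3 probe sets in vitro, and by -0.83, -0.10 and -0.49 in vivo. Where these probe sets lie relative to the deleted exons was not used here, and one outside them checks nothing about the deletion. Arrays of a pair correlated at r = 0.983 in vitro and 0.982 in vivo across probe sets, and the 2 controls at 0.964. Levels in culture and in vivo were not compared with each other.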

How the data were processed

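Poly(A) RNA was copied from an oligo(dT) primer into cDNA and biotin-labelled antisense cRNA, per the labels' protocols, so signal depends on distance from the 3′ end. The authors deposited 1 table of log2 expression values for 4 arrays, and the log2 scale was read from its range (2.87 to 13.79). The authors' software, background correction and normalization are not given in the sources used here. Values were quantile normalized over the 4 arrays (limma 3.58.1, R 4.3.3). Gene names came from the platform annotation, with symbols updated through RefSeq (all 10 members matched). The 932 probe sets with several genes were not named. Each gene was represented by its brightest probe set, and 10916 of 18193 genes passed a filter on the mean signal (40th percentile or higher).

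Differences were counted at 2-fold, and the shared effect was fitted with lmFit and eBayes with Benjamini-Hochberg adjustment at 0.05. The number of arrays limits the precision. The rule for names took every member, per list up to 3 genes with the largest difference in each pair, and 3 nearest profiles for members past 2-fold. Listed genes under the filter were given only by name. Furin, Krt10, Lor, Epcam, S100a8, S100a9, Ngp, Csf3r, Cxcr2, Elane and Mpo fall outside this rule. So do the values of Mmp1a and Mmp1b, given as direct neighbours of Mmp3. Members and lists were chosen with earlier results of these data known. Promoter motifs were searched with Python 3.11.15. The fit and the 2-fold count were tested on simulated data.

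Alternatives were the deposited values, loess within the pair, an offset of 15.4 (the 20th percentile of linear signal) before log2, centring on the median difference, the median of all probe sets, removal of _x_at and _s_at probe sets, no level filter or the 60th percentile, thresholds of 1.5-fold and 3-fold, a variance trend, and no system term. Removal of the trend on gene length was chosen after seeing the data.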

Additional observations from a re-analysis of the deposited data

Results flagged for a closer look

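Mmp3 differed in opposite directions in the 2 systems, at -1.02 in vitro and 2.73 in vivo on its single probe set. Mmp9 was at -0.41 in vitro and 1.64 in vivo, but its second probe set was at 0.09 in vitro. Mmp19 was at 1.17 in vitro and -0.15 in vivo, but its second probe set was at 0.59 in vivo. With 1 deleted and 1 control array per system, the difference between systems was not tested for these genes.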

How the results depend on the processing

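The in vitro counts depended most on the settings. The 2 MMP genes at least 2-fold lower in vitro became 1 in the deposited values, with loess, centring, the added offset or the median of all probe sets, and 0 at 3-fold or with the trend on gene length removed. Mmp3 ranged from -1.02 to -0.88 and Mmp23 from -1.11 to -0.83 over 9 alternatives. The 1 gene higher in vitro, Mmp19 (1.01 to 1.32), became 0 at 3-fold and with the 60th percentile filter, which left Mmp19 out. In vivo, the 2 higher genes became 1 with that filter, which left Mmp9 out, and the 1 lower gene became 0 at 3-fold. Over the 9 alternatives the in vivo differences ran from 2.25 to 2.76 for Mmp3, 1.35 to 2.06 for Mmp9 and -1.25 to -1.14 for Mmp23. The other 39 counts stayed within 1.5 times, the 0 MMP genes passing the limma fit under its 6 alternatives included. Among members under 2-fold, Mmp14 ranged from -0.13 to 0.57 in vitro. The limma fit had the pair as a term, and without it the lowest adjusted p of an MMP gene was 0.9998. Signals near the cutoff limit what can be read of Mmp10, Mmp12 and Mmp13.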

Other observations

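Proteins that MMPs cut had 13 of 14 genes above the cutoff. In vitro 11 of the 13 were higher in the deleted culture, as were 42.5% of all genes, and 0 by 2-fold (median 0.26, against -0.06 over all genes). In vivo 6 were higher, close to the 46.4% of all genes (median -0.07). Col7a1, the anchoring fibril collagen of the basement membrane zone, was at 1.49, while Eln, the gene of elastin, was at -2.80 with its other probe set at -0.48. Col7a1 is also made by keratinocytes, and several of their markers were higher on the same array. The part of these cells in the Col7a1 value was not tested. Tnc, tenascin C of wounds and tumour stroma, was at 0.48 in vitro and 0.54 in vivo, with its other probe set at 0.11 and 1.98. Vcan, a large proteoglycan, was at 0.41 and -0.80, but its 8 probe sets lay between -0.10 and 0.99 in culture and between -0.80 and 0.15 in vivo.

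Of 10 cytokines and growth factors known to induce MMPs, 5 passed the cutoff. Hbegf, a ligand of the EGF receptor, read 7.62 and 6.92 in vitro (control, deleted) and 6.91 and 9.73 in vivo, so its differences of -0.70 and 2.81 had the same signs as those of Mmp3. Il6 was at 0.89 in vivo with its control signal at 5.09, under the cutoff, and passed on average only through the deleted in vivo array. Tgfb1 was at 0.80 in vivo (other probe set 0.43). Il1a and Il1b were not above the cutoff on average, and differences of their transcripts were not interpreted here.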
